A study of Mus musculus with 6 samples.

Results

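The 10 genes described here handle iron in the liver, and they were chosen by gene symbol from the 16140 rows of the deposited gene table. They are the hepcidin genes Hamp and Hamp2, the regulators Bmp6, Hfe and Tfr2, the iron carrier Trf, the uptake receptor Tfrc, the exporter Slc40a1 and the ferritin chains Fth1 and Ftl1. All 10 passed the filter on low counts, which left 12173 genes to test. The rule that selects them uses symbols and no measured value, but the list was drawn up with earlier results of these data known.

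Bulk RNA-seq was made from mouse livers, with 3 control and 3 knockout libraries from animals on a normal diet. The genotype of the control livers was Selofl/fl, so both copies of Selenoo, a selenoprotein gene, carry the floxed allele, and their treatment label reads none. The knockout livers were Selofl/fl Alb-Cre: they carry the same floxed alleles plus Cre driven by the albumin promoter, which is active mainly in hepatocytes, and the other cells of the liver largely keep the gene. The controls carry no Cre, so an effect of Cre itself cannot be told apart from that of losing Selenoo. The labels give no age, sex or strain and do not say that each library came from a separate mouse, so the p-values below measure the spread between these libraries.

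Hepcidin is a small peptide hormone that hepatocytes secrete into blood. It binds ferroportin, the only known iron exporter of mammalian cells and the product of Slc40a1, and causes its degradation, so that less iron leaves macrophages, enterocytes and hepatocytes. Liver hepcidin transcription rises with iron through bone morphogenetic protein (BMP) signals read by hemojuvelin, HFE and transferrin receptor 2, and with inflammation through interleukin 6 and STAT3. Within cells, iron regulatory proteins bind hairpins called iron responsive elements when iron is scarce. This blocks translation of ferritin and ferroportin mRNA and stabilises the mRNA of transferrin receptor 1. RNA-seq of this kind measures mRNA level and not translation.

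The hairpins are shown because they separate the genes whose mRNA amount iron regulatory proteins control from those whose translation they control. A search of GENCODE M21 transcripts (GRCm38) required the unpaired C, 5 paired bases in the upper stem, the loop CAGTGN and at least 3 of 5 pairs in the lower stem, on the transcript strand. It found such an element in 4 of the 10 genes, with 1 each in Fth1, Ftl1 and Slc40a1 and 4 in Tfrc. Of 21842 protein-coding genes, 95 (0.435%) held at least 1, and Tfrc alone held more than 1. Capitals mark the unpaired C and the loop, and each element is 27 bases long. The ferritin and ferroportin elements lie in the 5′ UTR and the 4 of Tfrc in the 3′ UTR.
Fth1, chr19:9982733-9982759, plus strand: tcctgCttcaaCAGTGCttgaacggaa
Ftl1, chr7:45459780-45459806, minus strand: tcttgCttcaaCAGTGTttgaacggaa
Slc40a1, chr1:45925466-45925492, minus strand: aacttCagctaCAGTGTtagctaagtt
Tfrc, chr16:32631220-32631246, plus strand: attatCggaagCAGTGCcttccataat
Tfrc, chr16:32631599-32631625, plus strand: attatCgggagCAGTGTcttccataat
Tfrc, chr16:32631664-32631690, plus strand: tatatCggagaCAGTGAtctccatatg
Tfrc, chr16:32631711-32631737, plus strand: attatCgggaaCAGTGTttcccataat

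The mouse genome holds the hepcidin genes Hamp and Hamp2 side by side on chromosome 7, with start sites 19.8 kb apart. Their promoters are shown because they differ in a match to the BMP response element close to the start site. Sequence further upstream was not searched, so a match there in either gene is not known from these windows. Over the 250 bases before the start site, the RefSeq sequences (GRCm38.p6) were 89.7% identical, with 20 mismatched and 6 gapped positions. The stretches below run 5′ to 3′ on the minus strand, and capitals mark matches to the BMP response element GGCGCC and the STAT site TTCNNNGAA, each searched on both strands.
Hamp, chr7:30944108-30944148: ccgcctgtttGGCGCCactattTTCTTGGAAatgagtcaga
Hamp2, chr7:30924257-30924297: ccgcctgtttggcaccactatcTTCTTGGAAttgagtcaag
Counted from 1 at the 5′ end of the stretch, Hamp2 differs from Hamp by G14A, T22C, A32T, G40A and A41G. The first of these falls in the GGCGCC match of Hamp, so Hamp2 holds no GGCGCC in this window, whereas the STAT match is the same in both. Of 32851 promoter windows of 300 bases (250 before to 50 after a start site), 11.9% held GGCGCC and 8.30% held TTCNNNGAA. Windows were found for 8 of the 10 genes, and Tfrc held the only other match among them, a GGCGCC at chr16:32608807-32608812. A match describes the letters and not a bound site.

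Library totals ran from 15550287 to 18680196 counts, so 3 counts, the number that a count of 0 allows, came to 0.155 to 0.201 counts-per-million (CPM). Selenoo (chr15:89089038-89100339, plus strand) fell from 91.7 ± 6.50 CPM in control livers to 7.76 ± 1.52 in the knockouts (SD, n = 3 each), a log2 fold change of −3.56 ± 0.17 (SE, adjusted p = 4.64e-05 by edgeR's quasi-likelihood test). Summed transcripts-per-million (TPM) of 6 hepatocyte markers, albumin among them, ran from 125938 to 154165 over the libraries. Of the 6, 1 was called, against 1.49% of all genes tested. It was Serpina1a, which rose in the knockouts (log2 fold change 0.94, edgeR adjusted p = 0.0198). Across all tested genes, 181 (94 higher and 87 lower in the knockouts) passed an adjusted p of 0.05, and the median log2 fold change was −0.02.

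None of the 10 iron genes changed by that test, against 1.49% of all genes tested. Before adjustment, 3 of them had a p under 0.05, Hamp2, Tfrc and Tfr2, against 18.5% of all genes. The control and knockout libraries did not overlap in CPM for 3, Tfrc, Tfr2 and Fth1, against 25.2% of all genes. In the authors' deposited table, 2 of the 10, Hamp2 and Tfrc, have a q under 0.05, against 3.47% of the genes with a q there. DESeq2 run on the same counts called the same pair, against 5.26% of genes. The estimated log2 fold change was above 0 for 4 of the 10 genes, with a median of −0.06, close to that of all genes.

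**Figure D1:**
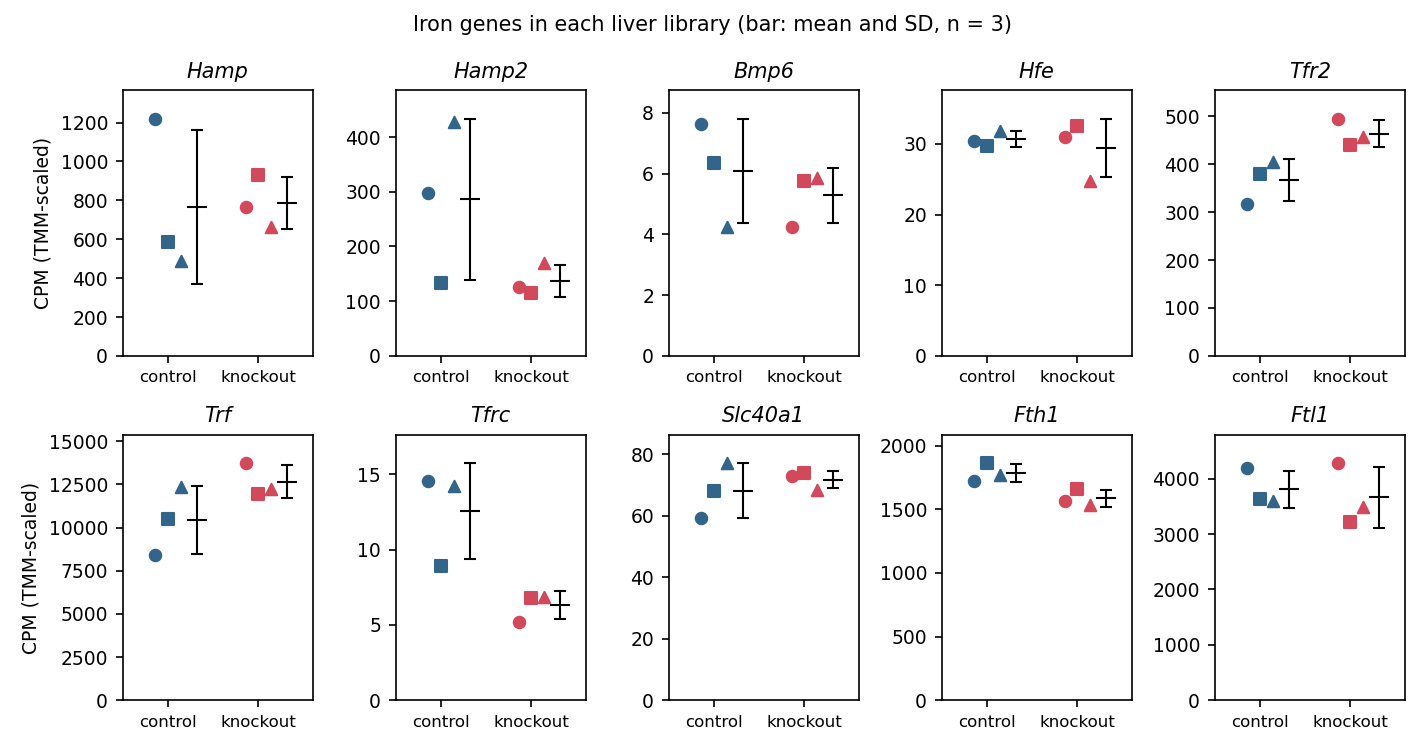
CPM (vertical axis, scaled by TMM, from 0) of the 10 iron genes in the 3 control (blue) and 3 knockout (red) liver libraries, with circle, square and triangle for libraries 1, 2 and 3 and bars for the mean and SD. Hamp and Hamp2 vary most among the controls, and the knockout libraries of Tfrc all lie below its controls.

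Abundance differed widely among the iron genes in these livers. On the TPM scale, which corrects for length, Trf averaged 6934 TPM over the 6 libraries (rank 17 of 16140 genes), Ftl1 6447 (rank 19) and Hamp 5991 (rank 21). These 3 overlapped across libraries and so have no order among them. Fth1 (3036 TPM, rank 40) and Hamp2 (1410 TPM, rank 100) came next. Their ranges overlapped across libraries, but within every library Fth1 lay above Hamp2. Below them lay Tfr2 at 183 TPM, Slc40a1 at 28.0 TPM and Hfe at 13.6 TPM, with no overlap between neighbours. Bmp6 (2.53 TPM) and Tfrc (2.48 TPM) were lowest and overlapped. The hepcidin values rest on short transcripts, since the table's counts and FPKM imply usable lengths of 157 bases for Hamp and 185 for Hamp2, against 688 to 4668 for the other 8, so their TPM depends most on how length was modelled.

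Hamp encodes hepcidin and is the gene in mice that carries its iron-regulating activity. Its CPM in the controls was 1219, 587 and 491 and in the knockouts 767, 929 and 663. Control library 1 was highest and control libraries 2 and 3 were lowest, so the knockouts lay inside the control range. The means were 765 ± 396 and 786 ± 134 CPM (SD, n = 3 each), and the log2 fold change was 0.04 ± 0.31 (SE, 95% interval −0.66 to 0.74, adjusted p = 0.956 by edgeR). The interval covers folds from 0.631 to 1.67, so a change within these bounds is compatible with these libraries. It does not give the smallest change that the test could detect. The estimate turned negative under upper-quartile scaling (−0.0095), and leaving out single libraries gave −0.20 (without control 3) to 0.55 (without control 1, edgeR adjusted p = 0.128).

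Hamp2 encodes a second hepcidin peptide, which is not known to regulate iron in mice as hepcidin does. Its CPM was 298, 134 and 427 in control livers and 126, 116 and 170 in knockout livers. Control libraries 1 and 3 lay above every knockout, but control library 2 lay below knockout library 3, so the groups overlapped. The means were 286 ± 147 and 137 ± 28.8 CPM (SD, n = 3 each), a log2 fold change of −1.06 ± 0.35 (SE, 95% interval −1.86 to −0.27, unadjusted p = 0.0143, adjusted p = 0.162 by edgeR). The authors' deposited table gives a log2 fold change of −1.06 with a q of 0.0340, and DESeq2 on the same counts gave an adjusted p of 0.0260. The edgeR call depended on single controls: without control 2 the log2 fold change was −1.40 (adjusted p = 0.0432), and without control 3 it was −0.65 (adjusted p = 0.212).

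Counts of the hepcidin genes share a limit. GENCODE M21 transcripts of Hamp (410 bases) and Hamp2 (420 bases) are 92.4% identical and share an unbroken identical run of 87 bases, so reads may be split between them. The table also places the Hamp2 row on the plus strand at chr7:30916983-30926909, whereas RefSeq places the gene on the minus strand at chr7:30922372-30924181. The strand setting of the counting is not given in the sources used here, so reads of Hamp2 and reads antisense to it cannot be told apart. Hamp (chr7:30942368-30944029, minus strand) has the same position and strand in both. Summed over both genes, which removes any split between them, the counts gave a log2 fold change of −0.19 ± 0.25 (SE, edgeR adjusted p = 0.720).

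The balance between the hepcidin genes differed from library to library. Hamp2 made up 19.6%, 18.6% and 46.5% of the summed Hamp and Hamp2 counts in control livers and 14.1%, 11.1% and 20.4% in knockout livers. Control library 3 stood far above the rest, with nearly as many counts for Hamp2 as for Hamp, and knockout library 3 lay above controls 1 and 2. The mean shares were 28.2% ± 15.8 and 15.2% ± 4.75 (SD, n = 3 each), and a two-sided exact permutation test gave p = 0.3, where 0.1 is the smallest p that 3 against 3 allows. The difference of −13.1 percentage points shrank to −3.91 without control library 3. These shares were computed after the values were seen.

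**Figure D2:**
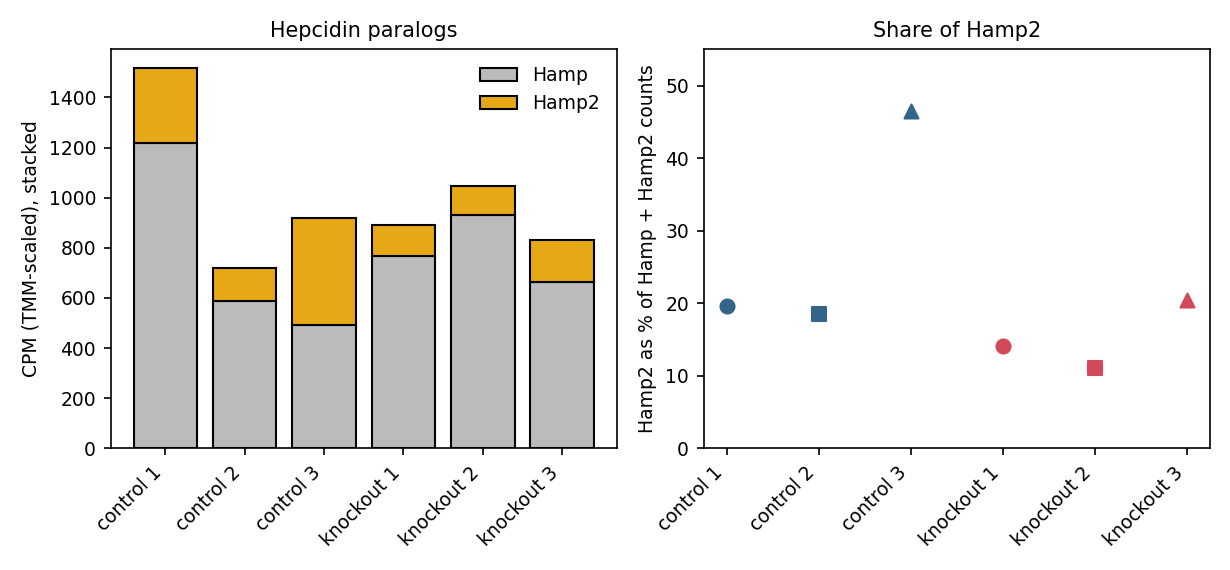
Left, stacked CPM of Hamp (grey) and Hamp2 (gold) in each library; right, Hamp2 as a percentage of the summed Hamp and Hamp2 counts in controls (blue) and knockouts (red). Control 1 holds the most Hamp at 1219 CPM, and control 3 holds the highest Hamp2 share at 46.5%.

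Spread within a group was unequal among the iron genes. In the controls, the highest library exceeded the lowest by 2.48 times for Hamp and 3.19 times for Hamp2, against 1.07 times for Hfe and 1.08 times for Fth1. In the knockouts the same ratios were 1.40 for Hamp and 1.47 for Hamp2, close to 1.38 for Bmp6 and 1.32 for Hfe, with 1.08 for Fth1. Over all genes, too, the counts of control pairs differed more than those of knockout pairs. The chi-square per degree of freedom was 47.6 to 80.7 between controls and 19.8 to 37.0 between knockouts. The control libraries also differed in how counts depended on gene length: the rank correlation of a gene's deviation with its length, across 12171 genes that are not independent replicates, was −0.30 in control 1, −0.22 in control 2 and 0.28 in control 3, and 0.076 to 0.27 in the knockouts. With each library's length trend removed, Hamp gave a log2 fold change of 0.39 (edgeR adjusted p = 0.228) and Hamp2 one of −0.94 (adjusted p = 0.278).

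Bmp6 encodes the main BMP ligand that reports liver iron stores, and sinusoidal endothelial cells rather than hepatocytes make most of it. Its CPM was 7.65, 6.36 and 4.25 in control livers and 4.24, 5.77 and 5.85 in knockout livers. The groups overlapped, and the log2 fold change was −0.20 ± 0.24 (SE, n = 3 each, adjusted p = 0.683 by edgeR). Summed TPM of 9 sinusoidal endothelial markers was 205, 216 and 217 in control livers and 179, 182 and 202 in knockout livers. Of the 9, 8 had an estimate below 0, whereas 47.8% of all genes tested had one above 0. Lyve1, a hyaluronan receptor, was the only one of the 9 to change, against 1.49% of all genes tested. Its log2 fold change was −1.15 (edgeR adjusted p = 0.0196). In bulk tissue, fewer cells of a type and less RNA per cell cannot be told apart, and the part of endothelial RNA in the Bmp6 value was not tested.

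Hfe encodes the MHC class I-like protein whose loss causes hereditary hemochromatosis. Its CPM was 30.4, 29.7 and 31.8 in control livers and 30.9, 32.5 and 24.7 in knockout livers, where only knockout library 3 lay below the controls. The log2 fold change was −0.06 ± 0.14 (SE, 95% interval −0.37 to 0.25, adjusted p = 0.839 by edgeR), and it changed sign to 0.052 without that library.

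Tfr2, transferrin receptor 2, senses iron-loaded transferrin on hepatocytes. Its CPM was 318, 379 and 405 in control livers and 494, 441 and 456 in knockout livers. Every knockout lay above every control in CPM, but not in TPM, where control 3 (193 TPM) lay above knockout 2 (188 TPM). The means were 367 ± 44.5 and 464 ± 27.6 CPM (SD, n = 3 each), a log2 fold change of 0.34 ± 0.15 (SE, 95% interval 0.01 to 0.66, unadjusted p = 0.0444, adjusted p = 0.254 by edgeR). In the authors' deposited table the q of Tfr2 is 0.250.

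Trf encodes transferrin, the carrier of iron in plasma, and had the highest mean TPM of the 10, overlapping Ftl1 and Hamp as given above. Its CPM was 8424, 10512 and 12342 in control livers and 13726, 11959 and 12249 in knockout livers. Control 3 lay above knockouts 2 and 3, so the groups overlapped. The log2 fold change was 0.28 ± 0.18 (SE, 95% interval −0.13 to 0.69, adjusted p = 0.433 by edgeR).

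Tfrc encodes transferrin receptor 1, which takes up iron-loaded transferrin and whose mRNA carries the 4 elements in its 3′ UTR printed above. Its counts were 217, 172 and 274 in control livers and 97, 119 and 121 in knockout livers. In CPM these were 14.6, 8.89 and 14.2 against 5.21, 6.80 and 6.88. Every knockout library lay below every control, in TPM as well as in CPM, with control 2 the nearest to the knockouts. The means were 12.6 ± 3.18 and 6.30 ± 0.94 CPM (SD, n = 3 each), a fold of 0.502 (95% interval 0.358 to 0.706) and a log2 fold change of −0.99 ± 0.22 (SE, unadjusted p = 0.00124, adjusted p = 0.0606 by edgeR). By unadjusted p it ranked 248 of all tested genes, outside the 181 called.

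The Tfrc difference passed the threshold in other tests of the same libraries. The authors' deposited table gives a log2 fold change of −0.99 with a q of 0.00559, and DESeq2 on the same counts gave an adjusted p of 0.00425. Over 17 alternatives the log2 fold change ran from −1.19 to −0.67 and the adjusted p from 0.00425 to 0.206. It was below 0.05 in 4 of them, among them the fit without control 2 (0.0390), and it was highest without knockout 1.

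Erythroid precursors are known for high Tfrc, so their markers are given beside it. Summed TPM of the erythroid list was 1858, 293 and 2470 in control livers and 198, 4385 and 1163 in knockout livers, and this sum did not separate the groups. It was mostly haemoglobin mRNA. Epb42, which encodes a protein of the red cell membrane skeleton, was at 0 in 5 of the 6 libraries. Alas2, on the same list, was counted in every library. It was at 80.3, 87.4 and 79.8 CPM in control livers and 77.5, 125 and 116 in knockout livers, which overlap (log2 fold change 0.36, edgeR adjusted p = 0.319). Kupffer cells, the liver's resident macrophages, also handle iron. Summed TPM of their 10 markers was 465, 846 and 730 in control livers and 570, 516 and 458 in knockout livers, which overlap. All 10 Kupffer markers had an estimate below 0 (median log2 fold change −0.37), whereas 47.8% of all genes tested had one above 0. None of the 10 passed the adjusted threshold by edgeR, and 4 had an unadjusted p under 0.05, against 18.5% of all genes tested. In the authors' deposited table, 1 of the 10 has a q under 0.05, against 3.47% of the genes with a q there. The part of these cells in the Tfrc value was not tested.

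**Figure D3:**
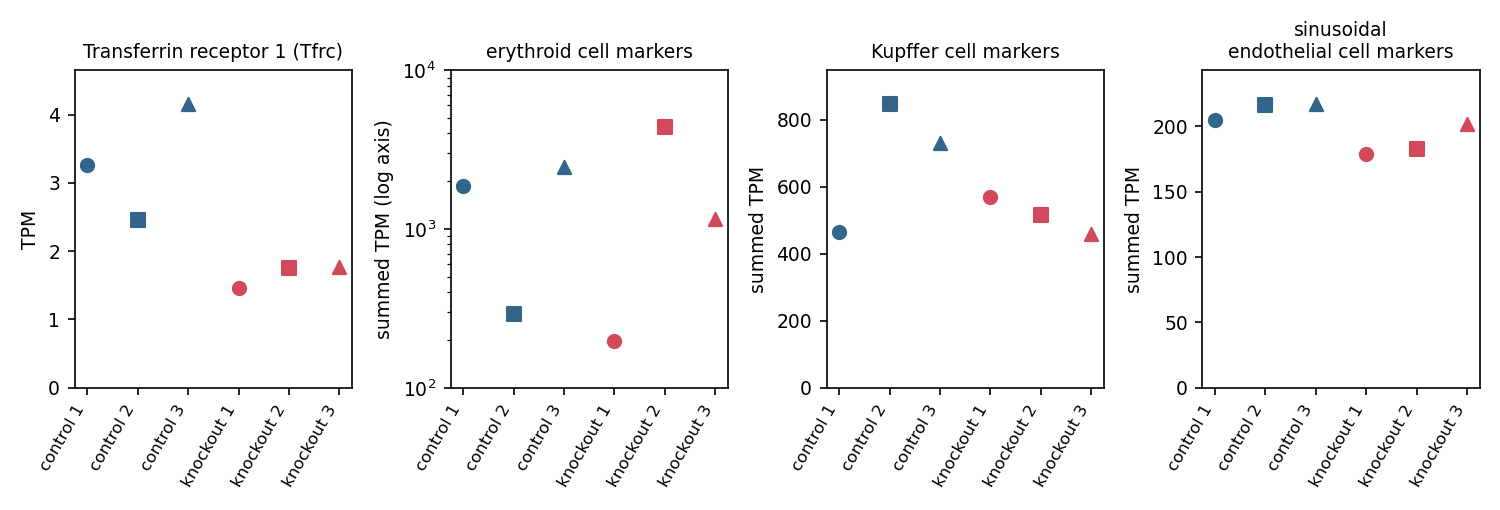
TPM of Tfrc and summed TPM of the erythroid (log axis), Kupffer and sinusoidal endothelial marker lists in each control (blue) and knockout (red) library. Tfrc is 2.46 to 4.15 TPM in control livers and 1.46 to 1.77 in the knockouts, while the erythroid sum is lowest in knockout 1 and highest in knockout 2.

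Slc40a1 encodes ferroportin, which Kupffer cells express strongly and hepatocytes also express. Its CPM was 59.3, 68.2 and 77.2 in control livers and 73.1, 73.9 and 68.5 in knockout livers, all inside the control range. The log2 fold change was 0.07 ± 0.14 (SE, 95% interval −0.23 to 0.38, adjusted p = 0.790 by edgeR), and it was −0.016 without control 1.

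Fth1 and Ftl1 encode the heavy and light chains of ferritin, which stores iron. Fth1 was at 1722, 1863 and 1774 CPM in control livers and 1569, 1660 and 1532 in knockout livers. Every knockout lay below every control in CPM but not in TPM, and the means were 1786 ± 71.4 and 1587 ± 65.9 CPM (SD, n = 3 each). The log2 fold change was −0.17 ± 0.14 (SE, 95% interval −0.48 to 0.13, adjusted p = 0.521 by edgeR). Ftl1 was at 4194, 3640 and 3593 CPM in control livers and 4282, 3221 and 3492 in knockout livers, with knockout 1 highest of all and the groups overlapping. Its log2 fold change was −0.06 ± 0.17 (SE, adjusted p = 0.881 by edgeR), with a sign that changed to 0.020 without control 1, 0.031 without knockout 2 and 0.088 with the length trend removed. Of the 4 genes with an iron responsive element, Tfrc had the lowest estimate (−0.99, not called by edgeR). The 3 with 5′ elements had estimates from −0.17 to 0.07. Hamp2, in which the search found no such element, was lower than Tfrc at −1.06. Any part of iron regulatory proteins in these values was not tested.

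**Figure D4:**
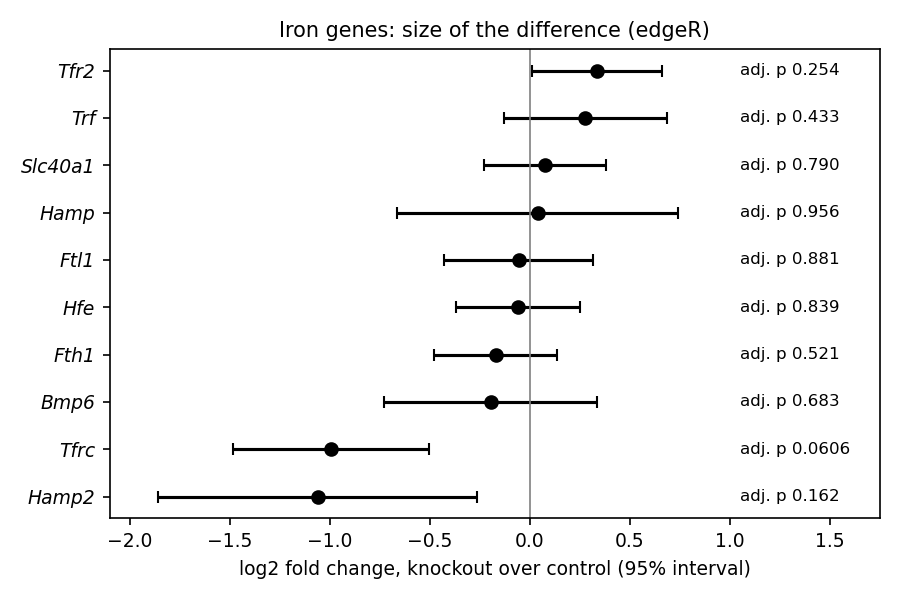
Log2 fold change of knockout over control (horizontal axis) with its 95% interval from edgeR for the 10 iron genes, ordered by size, with the adjusted p printed beside each. The intervals of Hamp2, Tfrc and Tfr2 do not cross 0, and every adjusted p is above 0.05.

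The other genes of iron and heme metabolism were read from 9 lists with 101 genes, of which 96 were tested. None was higher and 2 were lower in the knockouts by edgeR, or 2.08% against 1.49% of all genes tested, and both were acute phase genes. Before adjustment, 19 of the 96 had a p under 0.05, close to the 18.5% of all genes, and groups did not overlap for 29, against 25.2% of all genes. Estimates were above 0 for 55 of the 96, with a median log2 fold change of 0.09 against −0.02 for all genes. DESeq2 called 5 of the 96, namely Hp, Lcn2, Saa2, Saa3 and Smad9, a share close to its 5.26% of all genes.

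The BMP and hemojuvelin list, which carries the iron signal to hepcidin, had 15 tested genes, none called, and a median of 0.10. Of the 15, 2 had an unadjusted p under 0.05, against 18.5% of all genes tested. Smad9, a receptor-activated SMAD, had the smallest p, at 0.86 ± 0.26 (SE, edgeR adjusted p = 0.131), and was at 12.8, 9.71 and 10.8 CPM in control livers and 13.0, 28.8 and 18.5 in knockout livers. Neo1, the hemojuvelin-binding receptor neogenin, followed at 0.55 ± 0.20 (adjusted p = 0.190). Hemojuvelin itself (Hjv) was at 0.12 ± 0.14 (edgeR adjusted p = 0.683), and Tmprss6, the protease that cleaves it, at 0.33 ± 0.17 (adjusted p = 0.334). These 2 were picked after their values were seen. Genes that BMP signals switch on through SMAD proteins had 7 tested, none called, and a median of 0.17. Of these 7, 1 had an unadjusted p under 0.05 (18.5% of all genes). Smad6, an inhibitory SMAD that BMP signals induce, was at −0.49 ± 0.17 (edgeR adjusted p = 0.165) and the transcription factor Atoh8 at 0.67 ± 0.30 (adjusted p = 0.277), so the leading pair had estimates of opposite sign.

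The list of cytokine and CREBH inputs to hepcidin had 9 tested genes, none called and none at an unadjusted p under 0.05, with a median of 0.27. Socs3, the feedback inhibitor that STAT3 induces, was at 0.53 ± 0.25 (SE, edgeR adjusted p = 0.303), and Creb3l3, which encodes CREBH, at 0.27 ± 0.14 (adjusted p = 0.349). Acute phase genes, which inflammation drives in hepatocytes, had 12 tested, 2 lower and none higher, with a median of −0.02. Of the 12, 6 had an unadjusted p under 0.05, against 18.5% of all genes tested. Of these 6, 4 had an estimate below 0 and 2 above it. The estimates above 0 were those of Orm1, an orosomucoid, at 0.54 ± 0.18 (SE, edgeR adjusted p = 0.165) and Crp, C-reactive protein, at 0.30 (adjusted p = 0.249), both with groups that did not overlap and both picked after their values were seen. Lcn2, the siderophore-binding protein lipocalin 2, fell from 15.3, 19.8 and 15.4 CPM in control livers to 2.26, 4.63 and 5.0 in knockout livers. Its log2 fold change was −2.09 ± 0.27 (SE, edgeR adjusted p = 0.0101), and it passed the threshold in 17 of 17 alternatives. Saa3, a serum amyloid A protein, fell from 8.72, 12.8 and 5.81 CPM to 2.74, 2.51 and 1.48, by −2.02 ± 0.33 on the log2 scale (adjusted p = 0.0223). The Saa3 call was lost without control 2 (edgeR adjusted p = 0.0514) and without knockouts 1, 2 or 3 (0.0752 to 0.0881). Macrophages and other cells make Saa3 and Lcn2 too, and the part of the Kupffer markers given above in these values was not tested.

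Iron uptake, reduction and endosomal release had 8 tested genes, none called, and a median of −0.01. In each direction, 2 of the 8 had an unadjusted p under 0.05, against 18.5% of all genes in either direction. Slc11a1, the macrophage metal transporter NRAMP1, was at −0.58 ± 0.15 (SE, edgeR adjusted p = 0.0893), with 9.84 ± 0.67 CPM in the knockouts against 14.6 ± 1.84 in the controls. Steap4, a metalloreductase, was at −0.66 ± 0.22 (adjusted p = 0.164). Slc11a1 and Steap4 passed the threshold without control 1 (edgeR adjusted p = 0.0401 and 0.0304), in a fit that called 361 genes against 181 with all libraries. Oxidases, chaperones and ferritin turnover had 6 tested, none called and none at an unadjusted p under 0.05, with a median of 0.10. The iron chaperone Pcbp1 was at −0.35 ± 0.16 (edgeR adjusted p = 0.289) and Ncoa4, the receptor for ferritin breakdown, at 0.24 ± 0.17 (adjusted p = 0.455).

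The list of iron regulatory proteins had 3 tested genes, none called and none at an unadjusted p under 0.05, with a median of 0.15. Aco1, which encodes iron regulatory protein 1, was at 0.43 ± 0.20 (SE, edgeR adjusted p = 0.281). Without control 3 it passed at 0.69 (edgeR adjusted p = 0.0328), in a fit that called 668 genes against 181 with all libraries. Fbxl5, the ubiquitin ligase subunit that degrades iron regulatory protein 2, was at 0.15 ± 0.15 (adjusted p = 0.610). Mitochondrial iron and iron-sulfur cluster genes had 16 tested and none called, with 2 at an unadjusted p under 0.05 (18.5% of all genes), 8 with groups that did not overlap (25.2% of all genes) and a median of 0.21. Slc25a28, mitoferrin 2, was at 0.38 ± 0.13 (edgeR adjusted p = 0.181) and the cysteine desulfurase Nfs1 at 0.46 ± 0.17 (adjusted p = 0.199). Nfs1 averaged 33.1 ± 7.46 CPM in control livers and 45.4 ± 0.76 in the knockouts.

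Heme synthesis, transport and breakdown had 20 tested genes, none called, and a median of 0.04. Of the 20, 4 had an unadjusted p under 0.05 (18.5% of all genes), 1 higher and 3 lower. Alad, an early enzyme of heme synthesis, was at −0.40 ± 0.13 (SE, edgeR adjusted p = 0.146), with 140 ± 11.5 CPM in control livers and 106 ± 3.55 in the knockouts, which did not overlap. Hp, the plasma haemoglobin scavenger haptoglobin and also an acute phase protein, was at −0.60 ± 0.20 (adjusted p = 0.156), with 3279 ± 226 and 2163 ± 515 CPM.

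**Figure D5:**
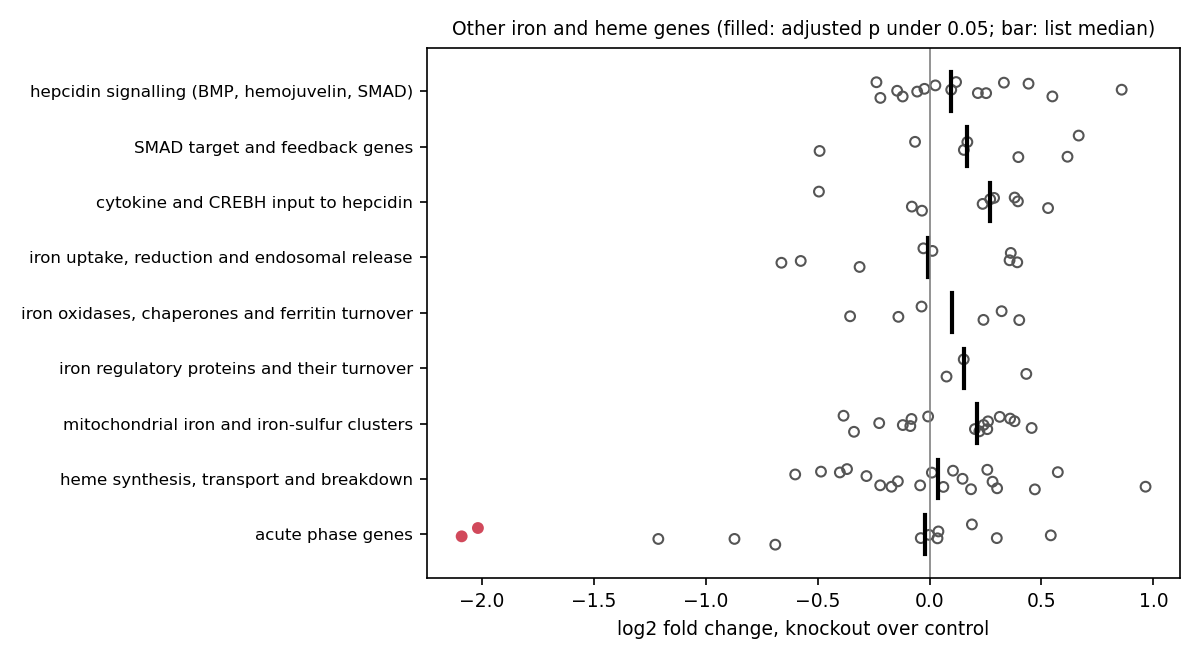
Log2 fold change of knockout over control (horizontal axis) of each tested gene in the 9 lists of other iron, heme and acute phase genes, with a bar at each list's median and filled points for an adjusted p under 0.05. Lcn2 and Saa3 at −2.09 and −2.02 are the only filled points, and the list medians lie between −0.02 and 0.27.

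Patterns across the 6 libraries are given as a description, because the libraries share depth and condition. For Tfrc, the genes with the highest Pearson correlation of log2 CPM over the 6 libraries were B3gntl1 (r = 0.991), the purine synthesis enzyme Pfas (0.989) and Alad (0.987). At r over 0.9 with Tfrc stood 172 genes, or 1.41% of those tested. For Hamp the highest were Tpm4 (0.995), Acnat1 (0.993) and Psmf1 (0.990), and 166 genes (1.36%) stood over 0.9. For Hamp2 the highest were Guf1 (0.993), Ankrd44 (0.985) and Sec16b (0.985), with 70 genes (0.575%) over 0.9. The lists for Hamp and Hamp2 shared none of their 3 leading genes, but so few genes out of 12173 cannot show whether the patterns differ.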

How the data were processed

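Liver RNA was enriched for mRNA with oligo(dT) beads, copied into cDNA from random hexamer primers and PCR-amplified, per the labels' protocols. The submitters' processing notes name HISAT2, Bowtie2, RSEM 1.3.1 and GRCm38; their order and the strand of counting are not stated in those sources. The deposited table holds estimated counts, FPKM and TPM per gene and library, computed by the authors, per the file headers. The authors' DESeq2 results are in it too, with a log2 fold change, p-value and q-value per gene, again per the file headers. Its column names call the controls wild type, and columns were matched to samples by group and number.

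Estimated counts were rounded and tested in R 4.3.3 with edgeR 4.0.16 (filterByExpr, TMM, quasi-likelihood test, Benjamini-Hochberg over all 12173 genes tested, threshold 0.05). Alternatives used DESeq2 1.42.0, limma 3.58.1 (pseudocounts of 1 and 0.1), other scalings, filters of 1 CPM or none, a replicate block, removal of a length trend, and each library left out. The procedure was also run on counts simulated from its own model. Those had no length trend and equal spread in both groups, so that run cannot speak to these features of the libraries. CPM are TMM-scaled. PCR reads carry no molecular identifiers, so count floors cover counting error only. No libraries were duplicates (chi-square per degree of freedom at least 19.8).

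The members, lists, motifs and markers were chosen with earlier results of these data known. Beside the 10 members, genes were named when they passed the threshold in a list, had its 2 smallest p-values, or were the 3 most correlated with Hamp, Hamp2 or Tfrc. Genes named outside this rule are said to be so or serve as checks or markers. Promoters came from RefSeq (GRCm38.p6) and transcripts from GENCODE M21; proteins were not compared here.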

Additional observations from a re-analysis of the deposited data

How the results depend on the processing

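Of the 10 members, none passed the edgeR threshold in most settings. A single gene passed with no low-count filter, with the length trend removed or at an adjusted p under 0.1 (1, Tfrc), and DESeq2 passed 2 (Hamp2 and Tfrc). Leaving out single libraries gave 0 to 2, the 2 being Hamp2 and Tfrc without control 2. Genes called over all numbered 181, and 330 with no filter, 634 by DESeq2, 110 by limma on log2(FPKM + 1), 79 on log2(TPM + 1), 281 with the length trend removed and 513 at an adjusted p under 0.1. Leaving out single libraries gave 43 (without knockout 2) to 668 (without control 3). On log2(FPKM + 0.1) the split was 52 higher and 74 lower. Of the list genes 2 were called, 5 by DESeq2 and 1 to 5 without single libraries. Signs reversed for Hamp under upper-quartile scaling (−0.0095), summed with Hamp2 (−0.19), and without control 2 (−0.12), control 3 (−0.20) or knockout 2 (−0.098), over a range of −0.20 to 0.55 without single libraries. The same range was −0.016 (without control 1) to 0.18 for Slc40a1, −0.18 to 0.031 for Ftl1 (0.020 without control 1, 0.031 without knockout 2, and 0.088 with the length trend removed) and −0.14 to 0.052 (without knockout 3) for Hfe. The cause was not tested. The Hamp2 share, with alternatives chosen after seeing the data, differed by −12.1 points in TPM and by −17.9 to −3.91 points without single libraries.

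Whether the replicate numbers pair the samples is not known. Same-numbered libraries had correlations of deviations of −0.16, −0.079 and −0.076, and differently numbered ones of −0.046 to 0.11. These values cannot decide it, because deviations were taken from the mean of each small group and the libraries differed in their length trends. With the replicate block 87 genes, none of the members (0) and 3 list genes (Lcn2, Saa2 and Saa3) were called, and Tfrc stood at −0.97 (adjusted p = 0.133). Hamp rests on 9460 to 18162 counts per library and Tfrc on 97 to 274.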

Other observations

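Cd163, the macrophage receptor for haemoglobin bound to haptoglobin, did not follow the groups. It was at 1.61, 1.5 and 13.5 CPM in the controls and 9.56, 11.7 and 11.6 CPM in the knockouts, so control libraries 1 and 2 stood apart from the other 4. Its log2 fold change was 0.97 ± 0.67 (SE, edgeR adjusted p = 0.461). It passed the edgeR threshold when control 3 was left out, in a fit that called 668 genes against 181 with all libraries. By comparison, Clec4f, a Kupffer cell lectin, was at 89.0, 113 and 96.6 CPM in the controls and 93.4, 84.7 and 84.2 CPM in the knockouts. These genes were picked after their values were seen.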
